A study of Mus musculus with 2 samples.

Results

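Transcripts of 6 genes, Btg1, Btg2, Tob1, Tob2, Pim1 and Pim2, were followed in immune cells of the pancreatic islets of NOD mice. They are 4 members of the BTG/TOB antiproliferative family and 2 Pim kinases, found by symbol among the 27998 genes of each matrix. Single-cell transcriptomes came from female NOD/ShiLtJ mice, an inbred strain that develops autoimmune diabetes spontaneously. Leukocytes positive for CD45.1, the form of the pan-leukocyte protein CD45 that this strain carries, were sorted from islets at ages of 7 and 12 weeks, and no treatment or allele other than the strain's own is given. Each age is 1 library made with the 3' chemistry of 10x Genomics, and the sources used here do not give the number of mice pooled. The members were chosen by symbol, and selected on the age ratios of these same libraries, which were known when the 6 were proposed, so every age difference below is a description and carries no test.

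BTG and TOB proteins share a conserved domain that binds the Caf1 subunit of the CCR4-NOT complex, which shortens the poly(A) tails of mRNAs, and they are known for restraining proliferation. Btg1 and Btg2 are known for holding naive T cells in quiescence, and Tob1 for restraining T cell activation. Pim kinases are serine/threonine kinases that are active once translated, so that their output follows the amount of transcript and protein. Pim1 is a standard target of cytokine receptors acting through STAT factors, and Pim1 and Pim2 promote growth and survival of lymphocytes.

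The libraries held 1113 barcodes and 8701184 unique molecular identifiers (UMIs, each a counted transcript molecule) at 7 weeks, and 2812 barcodes and 19288252 UMIs at 12 weeks. After filtering, 1099 and 2786 cells were kept, with medians of 5634 and 4950 UMIs, and 2 barcodes occurred in both libraries. Cells were classed by gates on single genes, at 7 and 12 weeks respectively giving 373 and 877 CD4 T cells, 177 and 483 CD8 T cells, 183 and 692 B cells, 29 and 54 plasmacytoid dendritic cells (pDC) and 11 and 34 macrophages. No gate was passed by 350 and 708 cells, and 24 and 62 cells passed 2 or more gates. Markers of each named class were present. The 7 T cell markers summed to 46.5 and 47.6 UMIs per 10000 in CD4 T cells and to 36.1 and 40.8 in CD8 T cells. The 6 B cell markers summed to 48.2 and 58.2 in B cells. The 7 pDC markers summed to 101 and 150 in pDC and the 8 macrophage markers to 309 and 418 in macrophages. The sums of B cells, pDC and macrophages include the genes of the gates, so part of each was set by the gate. The gates also took in other material. In CD4 T cells the 8 macrophage markers, none of them at 0, summed to 5.96 and 25.6 per 10000 and the 6 islet endocrine markers to 0.362 and 13.6. In CD8 T cells pDC markers summed to 4.04 and 7.38 and endocrine markers to 0.301 and 1.31, and in B cells endocrine markers to 0.202 and 1.31. The 4 plasma cell markers summed to 76.7 and 84.8 in B cells, more than the B cell markers, and T cell markers to 5.94 and 4.70. Jchain held most of the plasma cell sum (5812 and 6485 CPM) and had a UMI in 22.4% and 21.0% of B cells. That share was not particular to B cells, being 23.3% and 20.5% in CD4 T cells and 18.6% and 21.1% in CD8 T cells. Sdc1, another plasma cell marker, had a UMI in 2.73% and 3.47% of B cells. The 7 acinar markers summed to 0.134 and 1.89 in CD4 T, 0.276 and 1.58 in CD8 T and 0.498 and 1.81 in B cells, and the part of these transcripts in the results was not tested. With cells in 2 gates or without a Cd3 UMI left out (351 and 823 CD4 T cells), the 12 over 7 week ratios in CD4 T cells were 0.507 for Btg1, 0.240 for Tob1 and 0.459 for Pim1, close to those given below. Levels are the UMIs of a gene per 1000000 UMIs (CPM), both summed over the cells of a class, with exact Poisson 95% intervals, and ratios carry exact conditional binomial 95% intervals. These intervals hold counting error alone and leave out any spread between mice or libraries. A feature counts as lower or higher when its ratio passed 1.5-fold and it had at least 50 UMIs over both groups.

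The window upstream of the start site is shown for the 3 members that were lower at 12 weeks in the whole library, Btg1, Tob1 and Pim1, and for Btg2, the closest relative of Btg1, which was not. The sequences are from RefSeq on GRCm38.p6, 5′ to 3′ on the gene's strand: Btg1 at chr10:96616751-96617000 (plus strand), Btg2 at chr1:134079156-134079405 (minus strand), Tob1 at chr11:94211204-94211453 (plus strand) and Pim1 at chr17:29490535-29490752 (plus strand, ending where the annotated gene begins). Capitals mark matches to the motifs described after them.
Btg1: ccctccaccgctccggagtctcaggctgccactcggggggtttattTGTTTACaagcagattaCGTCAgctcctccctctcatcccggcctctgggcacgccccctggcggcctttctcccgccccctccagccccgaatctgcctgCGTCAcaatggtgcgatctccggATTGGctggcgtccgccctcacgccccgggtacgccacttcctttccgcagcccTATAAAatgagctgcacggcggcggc
Btg2: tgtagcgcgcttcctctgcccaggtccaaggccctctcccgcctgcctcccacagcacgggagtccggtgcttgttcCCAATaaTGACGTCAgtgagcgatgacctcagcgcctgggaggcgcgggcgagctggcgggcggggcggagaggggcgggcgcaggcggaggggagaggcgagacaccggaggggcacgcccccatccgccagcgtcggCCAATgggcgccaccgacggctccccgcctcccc
Tob1: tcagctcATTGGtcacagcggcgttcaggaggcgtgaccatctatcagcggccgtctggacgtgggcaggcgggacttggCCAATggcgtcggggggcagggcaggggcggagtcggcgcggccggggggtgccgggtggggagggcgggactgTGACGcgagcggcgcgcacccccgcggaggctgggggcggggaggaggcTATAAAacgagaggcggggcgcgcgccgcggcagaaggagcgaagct
Pim1: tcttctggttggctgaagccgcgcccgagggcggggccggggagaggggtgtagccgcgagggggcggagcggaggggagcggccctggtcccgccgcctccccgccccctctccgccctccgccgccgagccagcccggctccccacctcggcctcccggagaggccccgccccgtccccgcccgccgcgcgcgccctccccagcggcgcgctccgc

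Both strands of the 250 bases before each start were searched, and overlapping matches were kept. The search used 10 motifs, that of p53 being a half-site. They were the cyclic AMP response element TGACGTCA (in 1.55% of 32851 promoters of the same length), its core CGTCA (17.8%), AP-1 TGANTCA (6.75%), the STAT motif TTCNNNGAA (7.02%), forkhead TGTTTAC (3.17%), TATAAA (12.4%), CCAAT (33.8%), and the NF-kB (7.25%), p53 (7.13%) and CArG (1.47%) elements. Btg2 held the full TGACGTCA, 166 bases before its start, and CCAAT at 2 places. Btg1 held the core CGTCA at 2 places, TGTTTAC 204 bases before the start, TATAAA 26 bases before it and CCAAT on the opposite strand. Tob1 held TATAAA 47 bases before its start, CGTCA on the opposite strand and CCAAT at 2 places. Pim1 had no match to any of the 10 motifs before its upstream start. The window before its second start, which lies inside the gene and is not shown, held the forkhead motif on the opposite strand and a p53 half-site. Pim2 held CCAAT on the opposite strand 101 bases before its start. Tob2 had no match in its window, which lies inside the annotated gene. These matches are letters in a window and not evidence of binding.

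Btg1 (chr10:96617006-96622809, plus strand, mm10), the member with the most UMIs, was lower at 12 weeks in every class. Over all kept cells its level was 1281 CPM at 7 weeks (1257 to 1305, 10914 UMIs) and 596 CPM at 12 weeks (585 to 607, 11376 UMIs), a 12 over 7 week ratio of 0.465 (0.453 to 0.478). In CD4 T cells it was 1334 and 663 CPM, in CD8 T cells 1079 and 556 CPM, and in B cells 1261 and 572 CPM. The lowest 7 week level of these 3 classes stood above the highest 12 week level, and the ratios were 0.497 (0.475 to 0.520), 0.516 (0.483 to 0.550) and 0.453 (0.426 to 0.483). Levels in pDC were 1345 and 612 CPM (ratio 0.455, 0.388 to 0.532), and in macrophages 789 and 280 CPM (ratio 0.355, 0.272 to 0.464). Cells in no gate had 1333 and 579 CPM, a ratio of 0.435 (0.414 to 0.456). In order of level at 7 weeks, pDC, CD4 T cells, cells in no gate and B cells had overlapping intervals, CD8 T cells came below them and macrophages lowest. At 12 weeks macrophages were again lowest, and the interval of pDC overlapped those of the classes other than macrophages.

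The difference in Btg1 was spread over cells. With each cell thinned to 3000 UMIs, the median cell held 4 Btg1 UMIs at 7 weeks and 2 at 12 weeks in CD4 T cells, in CD8 T cells and in B cells. The upper quartile went from 7 to 4 in CD4 T cells and from 6 to 3 in CD8 T cells and in B cells. Of thinned CD8 T cells, 91.7% (86.5 to 95.4, Clopper-Pearson) had at least 1 Btg1 UMI in the 7 week library, against 79.1% (75.2 to 82.6) in the other, and without thinning 99.4% and 94.4% did. Thinning left out 14 CD4 T, 8 CD8 T and 6 B cells at 7 weeks and 0 at 12 weeks. No class here is known to lack Btg1, so no class gives the background from free RNA.

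**Figure D1:**
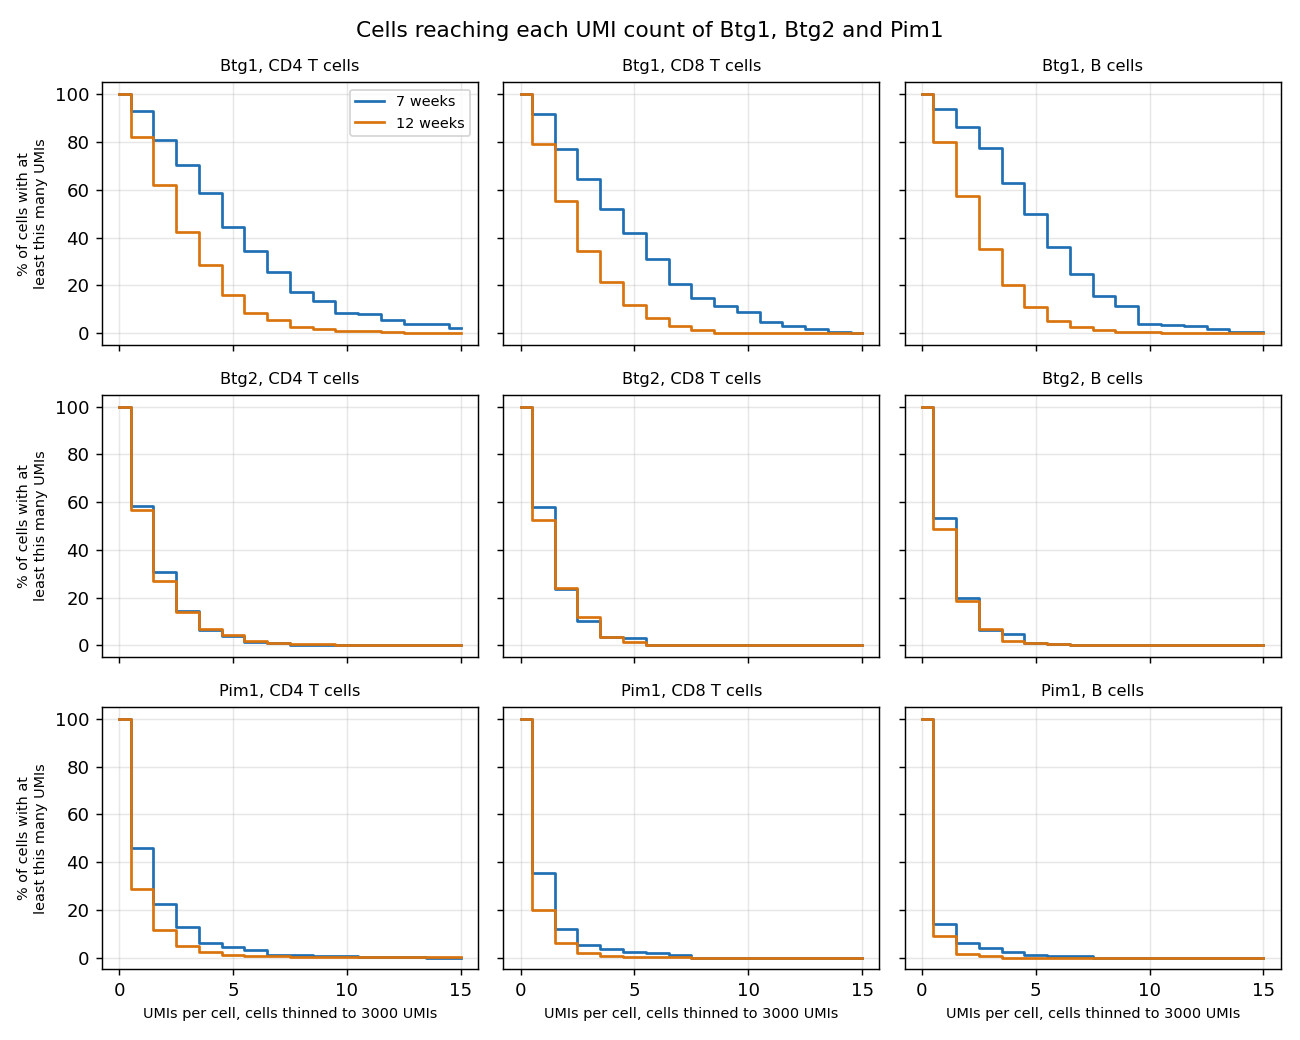
Share of cells (%, vertical axis) with at least the number of UMIs on the horizontal axis, for Btg1, Btg2 and Pim1 in CD4 T, CD8 T and B cells, each cell thinned to 3000 UMIs, 7 weeks in blue and 12 weeks in orange, with the last step holding 15 UMIs or more. The Btg1 curves of the 2 ages are apart along most of their length, with medians of 4 and 2 UMIs, whereas the Btg2 curves nearly coincide.

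Btg2 (chr1:134075170-134079120, minus strand), the paralog of Btg1 and a p53 and immediate early target, differed little between ages in lymphocytes. Over all kept cells it had 347 CPM (334 to 359) at 7 weeks and 325 CPM (317 to 333) at 12 weeks, a ratio of 0.936 (0.896 to 0.978). Levels were 341 and 329 CPM in CD4 T cells (ratio 0.965, 0.893 to 1.04), 240 and 255 CPM in CD8 T cells (1.06, 0.944 to 1.20) and 284 and 244 CPM in B cells (0.859, 0.762 to 0.971). None of these 3 lymphocyte ratios passed 1.5-fold in either direction. The myeloid classes went opposite ways. In pDC Btg2 rose from 328 CPM (267 to 399, 101 UMIs) to 547 CPM (480 to 621, 239 UMIs), a ratio of 1.67 (1.32 to 2.13). In macrophages it was 398 CPM (297 to 524, 51 UMIs) at 7 weeks and 237 CPM (195 to 284, 114 UMIs) at 12 weeks, a ratio of 0.594 (0.423 to 0.844). The log2 difference between those ratios was -1.49 (-2.07 to -0.91), which covers counting error over 29 and 54 pDC and 11 and 34 macrophages.

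Immediate early genes, transcripts induced within minutes of a stimulus or of tissue dissociation, differed in the same directions as Btg2 in these classes when summed. The sum of 10 of them (Fos, Fosb, Jun, Junb, Egr1, Ier2, Dusp1, Atf3, Hspa1a and Hspa1b) was 3268 and 4329 CPM in pDC, a ratio of 1.32 (1.23 to 1.43), and 8593 and 3490 CPM in macrophages, a ratio of 0.406 (0.376 to 0.439). Jun had ratios of 1.99 in pDC and 0.474 in macrophages, and Fos 1.35 and 0.428, but Egr1 had 10 and 1 UMIs in pDC. In CD4 T, CD8 T and B cells the sum had ratios of 0.860, 0.852 and 0.788. T cell markers summed to 10.2 and 4.47 UMIs per 10000 in pDC and to 6.02 and 1.60 in macrophages, and the 4 plasma cell markers to 1.09 and 19.9 in macrophages. The part of the immediate early genes and of these markers in the Btg2 and Pim1 values of pDC and macrophages was not tested. The macrophage value of Btg2 rested on few cells, since its ratio was 0.965 without the 5 cells of each library that held the most Btg2 UMIs. The pDC ratio was 1.80 without such cells, 2.08 without the cells that also passed another gate (19 and 35 cells left) and 1.41 without cycling cells.

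The balance of the paralogs shifted in every class, also in macrophages, where both were lower. In all kept cells there were 3.69 UMIs of Btg1 per UMI of Btg2 at 7 weeks and 1.84 at 12 weeks. They numbered 3.91 and 2.01 in CD4 T cells, 4.49 and 2.18 in CD8 T cells, 4.44 and 2.34 in B cells, 4.10 and 1.12 in pDC and 1.98 and 1.18 in macrophages. The difference of their log2 ratios in all kept cells was -1.01 (-1.08 to -0.93). The kit counts 1 end of each transcript, so these UMIs are not divided by gene length.

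Tob1 (chr11:94211454-94215495, plus strand), an antiproliferative protein expressed in resting T cells, had the lowest age ratio of the 6 over all kept cells. Its level was 46.5 CPM at 7 weeks (42.0 to 51.3, 396 UMIs) and 12.2 CPM at 12 weeks (10.6 to 13.8, 232 UMIs), a ratio of 0.262 (0.221 to 0.308). It went from 54.5 to 13.2 CPM in CD4 T cells (0.243, 0.182 to 0.322), from 70 UMIs (43.9 CPM) to 41 UMIs in CD8 T cells (0.252, 0.167 to 0.375) and from 21.8 to 6.76 CPM in B cells (0.310, 0.178 to 0.541). At 7 weeks B cells stood below both T cell classes beyond counting error, and the CD4 T and CD8 T intervals overlapped. Among CD4 T cells, 32.7% (28.0 to 37.7) carried a Tob1 UMI in the 7 week library and 7.64% (5.97 to 9.60) in the 12 week library, or 16.4% and 4.68% once thinned to 3000 UMIs. In pDC and macrophages 2 and 1 UMIs at 7 weeks and 4 and 3 at 12 weeks were too few to compare.

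Tob2 (chr15:81848272-81858796, minus strand), the paralog of Tob1, overlaps the gene model Gm49476 on the other strand, and it was not lower past 1.5-fold in all kept cells or in the classes as gated. It had 56.9 CPM (52.0 to 62.2) at 7 weeks and 49.9 CPM (46.8 to 53.2) at 12 weeks over all kept cells, a ratio of 0.877 (0.786 to 0.981). In CD4 T cells the levels were 65.1 and 49.4 CPM (0.758, 0.627 to 0.917), and in CD8 T cells 54.5 and 40.1 CPM (0.736, 0.561 to 0.970). In B cells they were 52.9 and 58.8 CPM, a ratio of 1.11 (0.846 to 1.47). Among cells of 4000 to 6000 UMIs, a window added after seeing the data, it was lower past 1.5-fold in T cells, with ratios of 0.514 in CD4 T and 0.497 in CD8 T cells. In cycling CD8 T cells its ratio was 0.645 (0.369 to 1.14) from 26 and 30 UMIs. The T cell classes thus lay below 1 and the B cells spanned it, with a log2 difference between CD4 T and B cells of 0.55 (0.08 to 1.02). UMIs of Tob1 per UMI of Tob2 went from 0.816 to 0.243 in all kept cells, from 0.836 to 0.268 in CD4 T cells, from 0.805 to 0.275 in CD8 T cells and from 0.412 to 0.115 in B cells.

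Pim1 (chr17:29490753-29496112, plus strand) overlaps Gm26885, a gene model on the other strand that had 5 UMIs at 7 weeks and 2 at 12 weeks. Over all kept cells Pim1 had 299 CPM (287 to 310, 2544 UMIs) at 7 weeks and 123 CPM (118 to 128, 2350 UMIs) at 12 weeks, a ratio of 0.412 (0.390 to 0.436). Cells in no gate were highest at both ages, with 405 and 187 CPM (0.461, 0.422 to 0.504), and CD4 T cells came next with 341 and 151 CPM (0.443, 0.403 to 0.486), with a macrophage interval that overlapped theirs at both ages. CD8 T cells had 167 and 76.0 CPM, a ratio of 0.454 (0.383 to 0.539). B cells had 184 and 48.7 CPM, a ratio of 0.265 (0.219 to 0.321). Levels in pDC were 149 and 66.4 CPM (0.444, 0.269 to 0.723, 46 and 29 UMIs), and in macrophages 234 and 122 CPM (0.523, 0.331 to 0.840, 30 and 59 UMIs). The macrophage ratio was 1.03 without cells that also passed another gate (7 and 22 cells left). The share of CD4 T cells with a Pim1 UMI was 63.0% (57.9 to 67.9) and 43.8% (40.5 to 47.1), and 45.7% and 28.8% after thinning.

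The larger difference of Pim1 in B cells rested on cycling cells. Of its 236 UMIs in 7 week B cells, 158 lay in 11 cycling cells, and the 5 cells with the most held 41, 40, 19, 17 and 15. All 5 of those cells were cycling. Among B cells that were not cycling, Pim1 had 79.0 CPM (62.4 to 98.6) at 7 weeks and 41.0 CPM (34.6 to 48.2) at 12 weeks, a ratio of 0.519 (0.391 to 0.692). That ratio lies close to those of CD4 T and CD8 T cells that were not cycling, 0.481 (0.434 to 0.533) and 0.434 (0.353 to 0.534).

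Pim2 (chrX:7878262-7883432, plus strand) was not lower past 1.5-fold in T cells and was lower by a little more than that in B cells. All kept cells had 31.0 CPM (27.4 to 34.9) and 26.1 CPM (23.8 to 28.5), a ratio of 0.842 (0.724 to 0.981). CD4 T cells had 19.6 and 19.5 CPM (0.992, 0.714 to 1.39) and CD8 T cells 29.5 and 24.5 CPM (0.832, 0.579 to 1.21). B cells had 48.3 CPM (37.0 to 61.9, 62 UMIs) at 7 weeks, above CD4 T cells beyond counting error, and 31.2 CPM (26.2 to 37.0, 134 UMIs) at 12 weeks, a ratio of 0.648 (0.476 to 0.890). Without the 5 B cells of each library with the most Pim2 UMIs the ratio was 0.739. Intervals of B cells and CD8 T cells overlapped at both ages. Macrophages had 0 Pim2 UMIs of 128013 at 7 weeks, where 3 counts would be 23.4 CPM, and 1 UMI at 12 weeks. UMIs of Pim1 per UMI of Pim2 went from 9.64 to 4.72 in all kept cells. Pim3, the third kinase of the family, had 24.1 and 20.5 CPM (0.851, 0.717 to 1.01), and Btg3 had 7 and 5 UMIs.

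**Figure D2:**
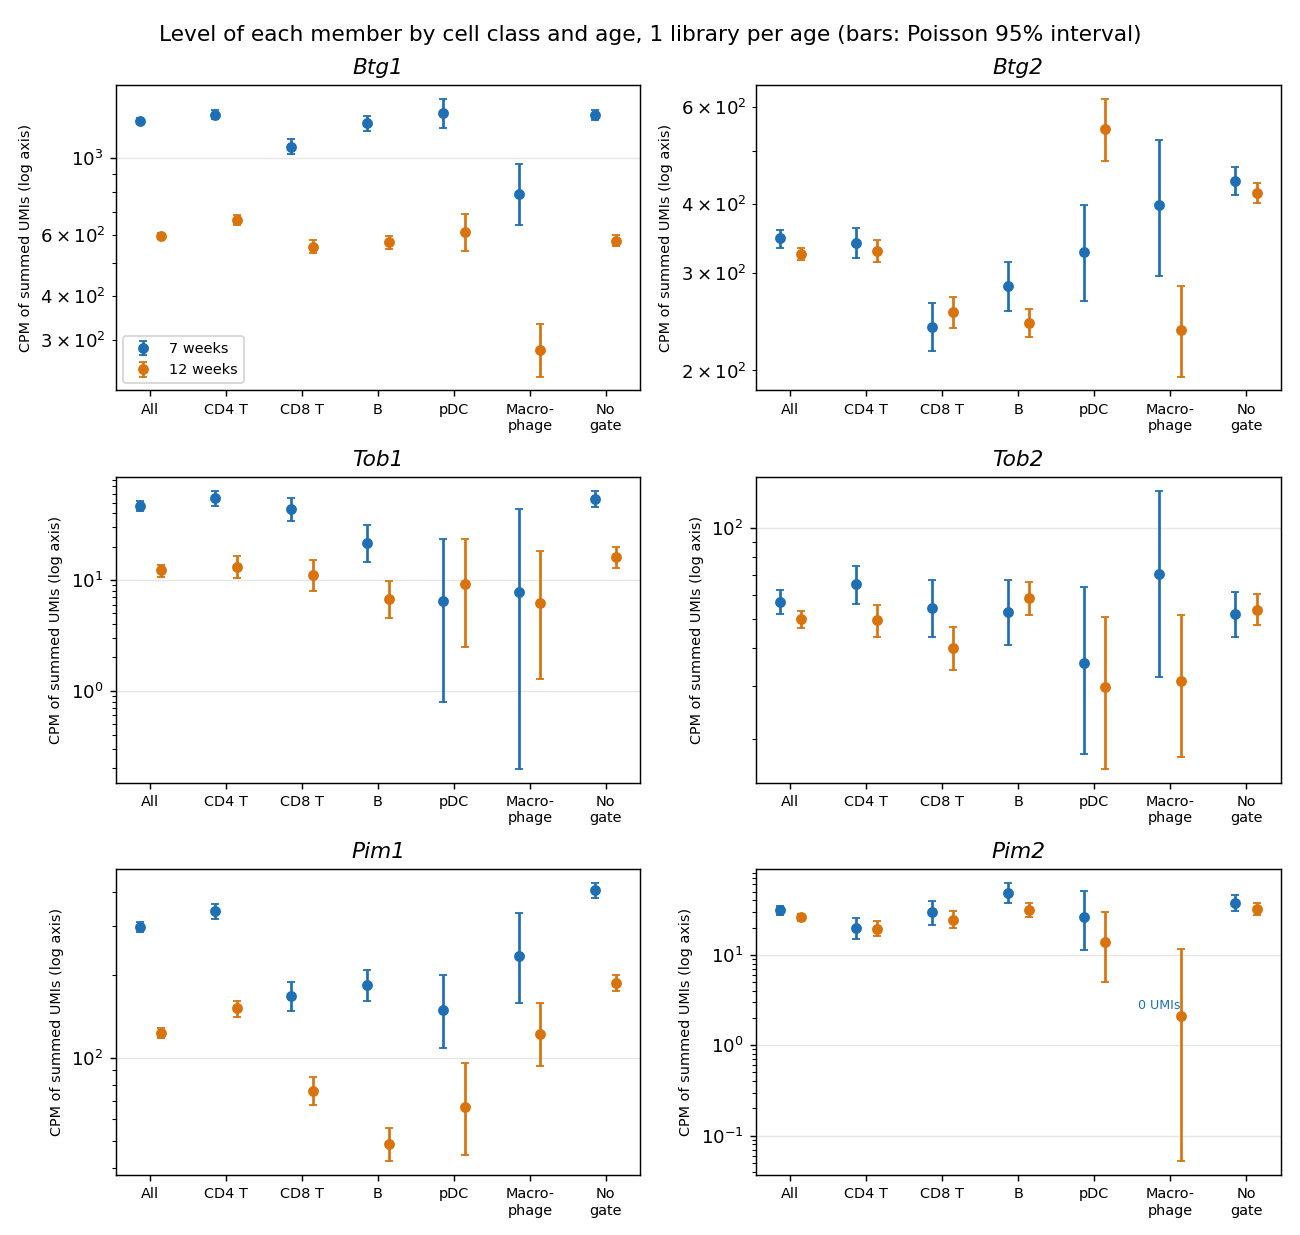
Level of each member (CPM of summed UMIs, log axis) in all kept cells, in each gated class and in cells that passed no gate, at 7 weeks (blue) and 12 weeks (orange), with Poisson 95% intervals as bars and 1 library per age. Btg1, Tob1 and Pim1 are lower at 12 weeks in CD4 T, CD8 T and B cells and in cells of no gate, with intervals that do not overlap, while Btg2 is higher at 12 weeks in pDC (547 against 328 CPM).

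Counted together, 3 of the 6 members were lower past 1.5-fold at 12 weeks in all kept cells, where 7.21% of 10844 features were. In CD4 T cells it was 3 of 6 (7.62% of features), in CD8 T cells 3 of 6 (6.63%) and in B cells 4 of 6 (8.36%), Pim2 being the addition. Of the 3 members with enough UMIs in pDC, 2 were lower (8.07% of features) and Btg2 was higher (12.9% of features). In macrophages all 3 members with enough UMIs were lower (11.7% of features), but the call of Btg2 was lost without the 5 cells with the most UMIs (0.965) and that of Pim1 without cells in 2 gates (1.03). The median log2 ratio of the 6 members in all kept cells was -0.68, and that of all features 0.02. In these cells 197 features (1.82%) had a ratio as low as that of Btg1, 112 (1.03%) as low as that of Pim1 and 16 (0.148%) as low as that of Tob1. Lower in CD4 T, CD8 T and B cells at once were 163 of 6398 features (2.55%), Btg1, Tob1 and Pim1 among them. The members were proposed from this contrast, so nothing is read from these shares.

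**Figure D3:**
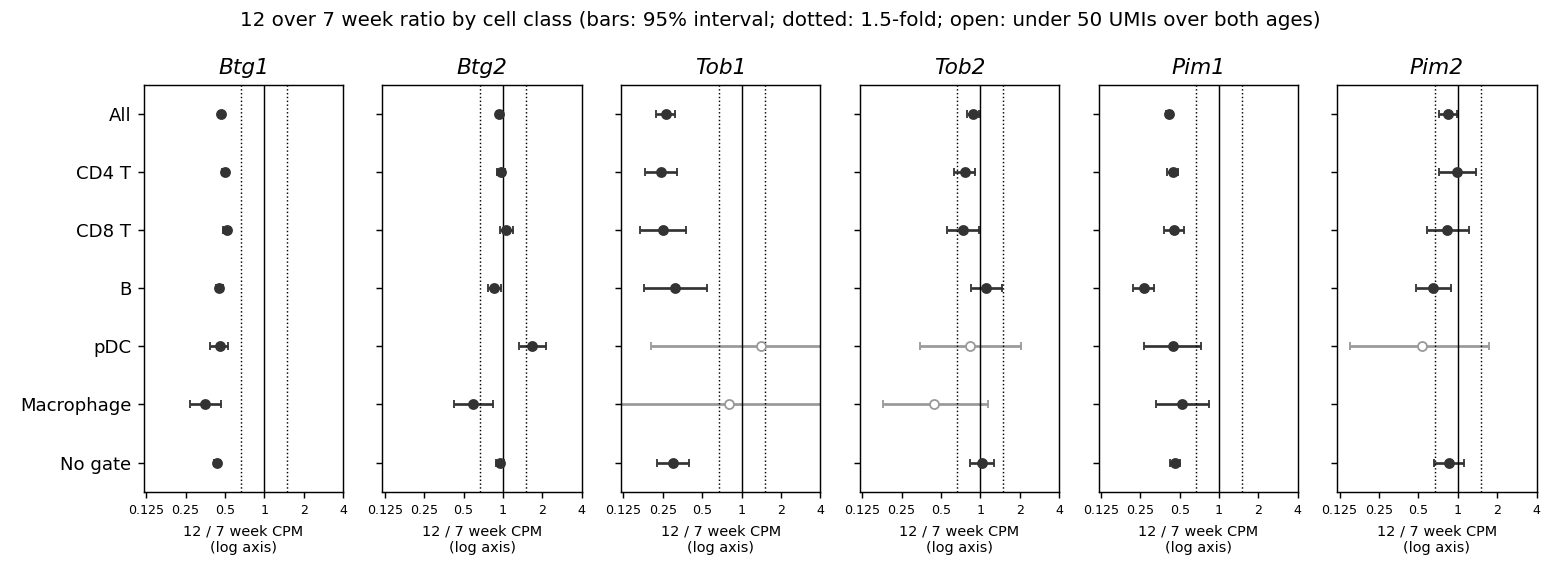
Ratio of the 12 week to the 7 week level (log axis) of each member by cell class, with 95% intervals as bars, dotted lines at 1.5-fold and open grey points where fewer than 50 UMIs were counted over both ages. Points of Btg1, Tob1 and Pim1 lie left of the lower dotted line in every class with 50 UMIs, the filled points of Tob2 lie between the lines and Btg2 spans 0.594 in macrophages to 1.67 in pDC. Intervals of Tob1 in pDC and macrophages run past the axis, and Pim2 in macrophages, with 0 UMIs at 7 weeks, is not drawn.

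The values in all kept cells were nearly the same with the mix of the gated classes held fixed, cells in no gate counting as 1 class. B cells held 13.4% of UMIs at 7 weeks and 20.5% at 12 weeks, and CD4 T cells 32.1% and 27.2%. With the 7 week mix of classes held fixed, the 12 over 7 week ratio was 0.471 for Btg1 (0.465 as measured), 0.276 for Tob1 (0.262), 0.441 for Pim1 (0.412), 0.974 for Btg2 (0.936), 0.867 for Tob2 (0.877) and 0.823 for Pim2 (0.842). Changing the mix alone, with 7 week levels in each class, gave ratios from 0.953 for Tob1 to 1.06 for Pim2. The mix of cells inside a class was not held fixed. The 3 regulatory T cell markers summed to 3.89 and 2.91 UMIs per 10000 in CD4 T cells. In all kept cells the 5 natural killer cell markers summed to 2.62 and 1.33. The part of such differences in the ratios was not tested. Among CD4 T, CD8 T and B cells, 7 of the 18 differences of a member's log2 ratio between 2 classes had an interval without 0, the largest being those of Pim1 between B and CD4 T cells (-0.74, -1.04 to -0.44) and between B and CD8 T cells (-0.77, -1.14 to -0.41).

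Other features were also lower at 12 weeks, and they were not spread evenly over kinds of gene. Of 55 pseudogenes tested in all kept cells, 42 (76.4%) were lower past 1.5-fold, with a median log2 ratio of -1.04. All 14 tested features with a ribosomal protein symbol that carries the suffix -ps were lower past 1.5-fold. Of 10062 named protein-coding genes outside the ribosomal proteins, 616 (6.12%) were lower. Of the 163 features lower in the 3 lymphocyte classes at once, 24 were pseudogenes and 107 such named protein-coding genes. Btg1 had the second most UMIs of those named genes. Others among the 8 with the most were Wdr89 (1684 and 999 CPM, ratio 0.593), Lrrc58 (451 and 184 CPM, 0.408) and Ybx1 (371 and 171 CPM, 0.460). The processed copies Btg1-ps1 and Btg1-ps2 had 0 UMIs in both libraries. The part of a difference between libraries in how reads were assigned to genes was not tested, and with 1 library per age it cannot be told apart from age.

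**Figure D4:**
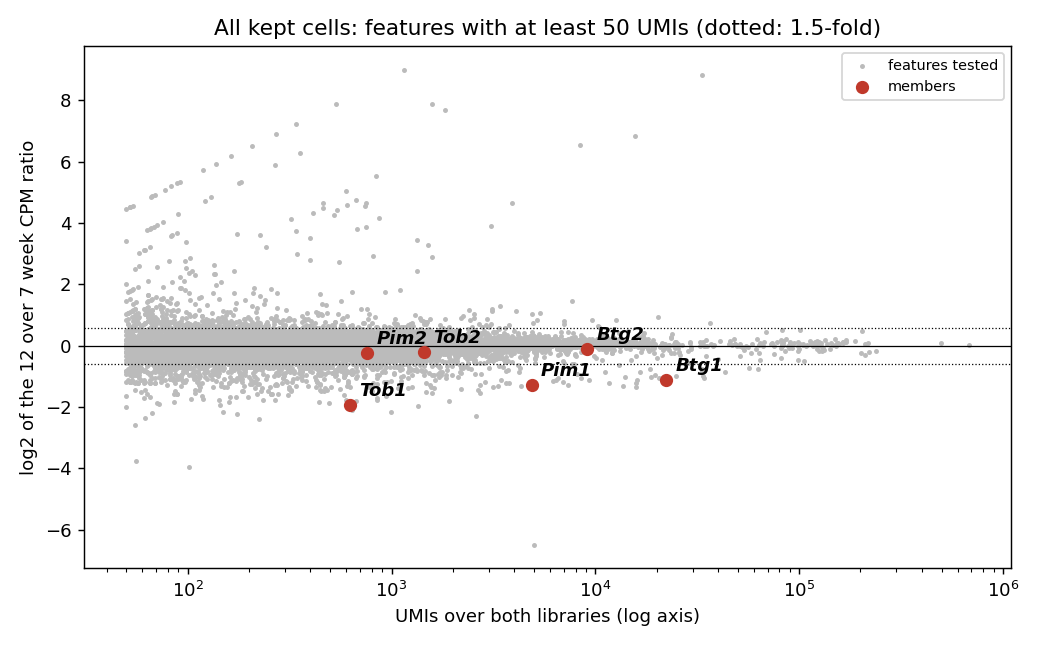
Log2 ratio of the 12 week to the 7 week level in all kept cells against UMIs over both libraries (log axis), for 10815 features with at least 50 UMIs in all (29 more with 0 UMIs in a library are not drawn), members in red and dotted lines at 1.5-fold. Btg1, Pim1 and Tob1 lie under the lower dotted line, while Btg2, Tob2 and Pim2 lie between the lines.

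Antiproliferative genes are known to be low in dividing cells, so cycling cells were compared with the rest at each age. Cycling cells had at least 2 UMIs over Mki67, Top2a, Birc5, Cdk1 and Rrm2 and numbered 133 at 7 weeks and 297 at 12 weeks, with 45 and 88 of them at exactly 2 UMIs and 176 and 366 other cells at 1. As a share of UMIs, 5 of the 6 members were lower past 1.5-fold in cycling cells at 7 weeks (17.5% of features were) and the same number at 12 weeks (18.7%). Btg1 had 1504 CPM in other cells and 657 in cycling cells at 7 weeks, a ratio of 0.437 (0.413 to 0.461), and at 12 weeks 707 and 241 CPM, a ratio of 0.341 (0.320 to 0.363). The ratios at the 2 ages were 0.556 and 0.414 for Btg2, 0.508 and 0.422 for Tob1, 0.543 and 0.631 for Tob2 and 0.455 and 0.481 for Pim2. Pim1 was the exception, with 305 and 281 CPM at 7 weeks (0.921, 0.840 to 1.01) and 130 and 100 CPM at 12 weeks (0.771, 0.694 to 0.854). Among cells of 4000 to 6000 UMIs (17 and 36 cycling cells) its ratios were above 1, at 1.5 and 1.40. Other members moved in that window too, with 0.897 for Btg1 at 12 weeks and 0.990 for Btg2 and 1.40 for Tob1 at 7 weeks. Tob2 at 12 weeks had 0.506, and Pim2 at 7 weeks and Tob1 at 12 weeks had ratios of 0. The counts of members lower in this window are given at the end.

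Cycling cells had more UMIs, with medians of 14216 and 13137 against 5392 and 4763 in other cells. The cycling gate is itself a count of UMIs and so favours cells of greater depth. On the scale of UMIs per cell, which is not corrected for depth, the picture was another. Btg1 averaged 11.1 UMIs per cycling cell (10.5 to 11.7) and 9.77 per other cell (9.57 to 9.97) at 7 weeks, and 3.69 (3.47 to 3.92) and 4.13 (4.05 to 4.21) at 12 weeks. Btg2 averaged 3.69 and 2.55 UMIs at 7 weeks and 2.39 and 2.20 at 12 weeks. Pim1 averaged 4.74 (4.38 to 5.13) per cycling cell and 1.98 (1.89 to 2.07) per other cell at 7 weeks, and 1.54 (1.40 to 1.68) and 0.761 (0.727 to 0.796) at 12 weeks. In UMIs per cell, not scaled for depth, Btg1 was thus a little higher in cycling cells at 7 weeks and a little lower at 12 weeks. Pim1 was higher in cycling cells at both ages. The part of depth in these UMIs per cell was not tested. Among cells of 8000 to 16000 UMIs, a window chosen after seeing the data (36 cycling cells at 7 weeks and 114 at 12 weeks), the CPM ratio was 0.845 and 0.698 for Btg1, 0.728 and 0.532 for Btg2, 0.357 and 0.465 for Tob1, 0.895 and 0.881 for Tob2 and 0.877 and 0.938 for Pim1, and Pim2 had 1.28 at 12 weeks.

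**Figure D5:**
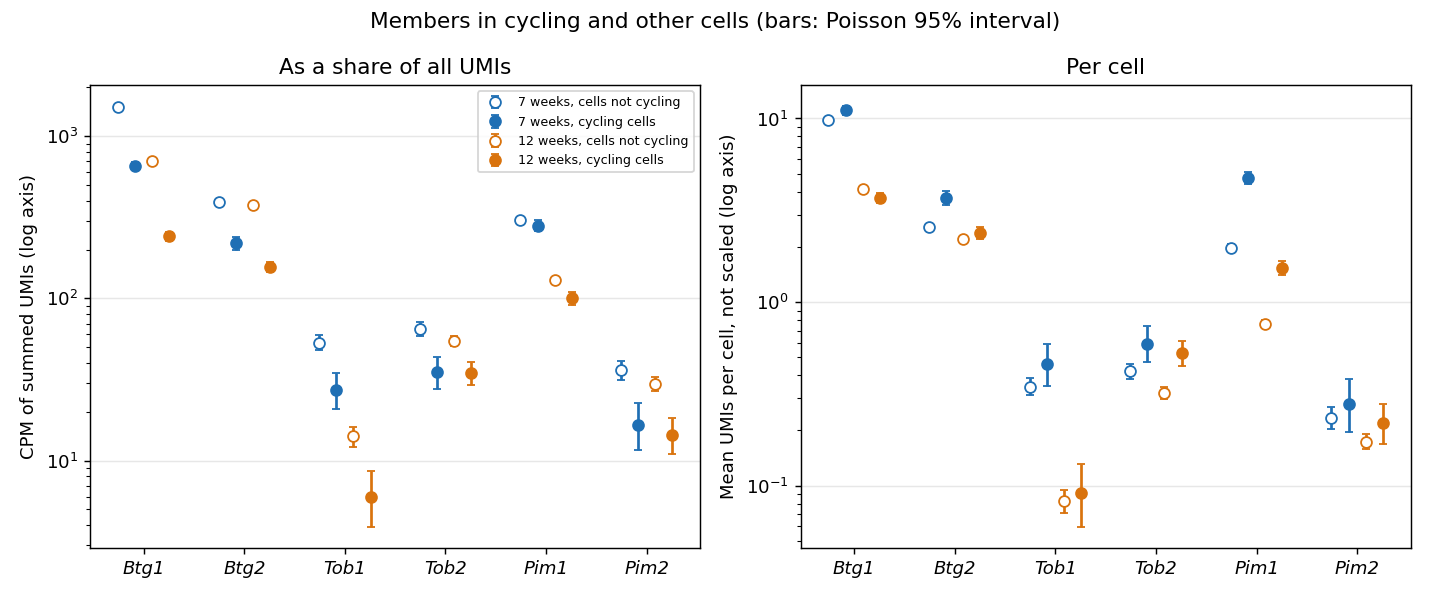
Members in cycling cells (filled points) and in other cells (open points) at 7 weeks (blue) and 12 weeks (orange), as CPM of summed UMIs on the left and as mean UMIs per cell on the right, both on log axes with Poisson 95% intervals as bars. Btg1 is lower in cycling cells as CPM (657 against 1504 at 7 weeks). In UMIs per cell, not scaled for depth, it is a little higher in cycling cells at 7 weeks (11.1 against 9.77) and a little lower at 12 weeks (3.69 against 4.13).

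Within classes, the share of UMIs taken by Pim1 in cycling cells differed between B and T cells. In cycling B cells it had 532 CPM (452 to 621) against 79.0 CPM in other B cells at 7 weeks, a ratio of 6.73 (5.10 to 8.94), and 85.5 against 41.0 CPM at 12 weeks, a ratio of 2.09 (1.53 to 2.82), in 11 and 41 cycling B cells. As CPM it was lower in cycling CD8 T cells, with ratios of 0.647 (0.498 to 0.836) and 0.650 (0.491 to 0.851), and CD4 T cells had ratios of 0.873 (0.749 to 1.01) and 0.534 (0.436 to 0.649). As UMIs per cell the direction turned, and cycling CD8 T cells averaged 2.38 Pim1 UMIs (1.92 to 2.90) against 1.26 (1.07 to 1.46) in other CD8 T cells at 7 weeks, and 0.937 against 0.515 at 12 weeks. Cycling CD4 T cells averaged 4.54 against 2.36 at 7 weeks and 1.18 (0.976 to 1.41) against 0.933 (0.866 to 1.0) at 12 weeks, where the intervals overlapped, and cycling B cells 14.4 against 0.453 and 1.56 against 0.223. Pim1 per cell was higher past 1.5-fold in cycling cells of all 3 classes at both ages except CD4 T cells at 12 weeks. The median depth of the cycling cells was 11353 to 20312 UMIs, against 4569 to 5685 in the other cells. The part of this depth in the UMIs per cell was not tested. As CPM, Btg1 was lowest in relation to other cells in cycling B cells, with ratios of 0.242 and 0.243. The ratios were 0.388 and 0.304 in CD8 T cells and 0.494 and 0.354 in CD4 T cells. In UMIs per cell, not scaled for depth, Btg1 averaged 10.0 (8.22 to 12.1) per cycling and 8.78 (8.34 to 9.23) per other B cell at 7 weeks. At 12 weeks these means were 2.93 (2.43 to 3.50) and 3.58 (3.44 to 3.73). The age difference of Btg1 and Pim1 was present in cycling and in other cells alike. Among all cycling cells the 12 over 7 week ratio was 0.367 (0.339 to 0.397) for Btg1, 0.358 (0.316 to 0.404) for Pim1 and 0.219 (0.134 to 0.350) for Tob1, and in other cells 0.470, 0.427 and 0.264.

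Btg1 and Btg2 also varied between cells of 1 class with the immediate early genes. With cells thinned to 3000 UMIs and divided at the median of the 10 gene sum, 7 week CD4 T cells above the median averaged 6.06 Btg1 UMIs and those at or below it 3.66, a ratio of 1.65. For Btg2 the averages were 1.64 and 0.772, a ratio of 2.13 (1.74 to 2.61). At 12 weeks the ratios in CD4 T cells were 1.37 (1.26 to 1.49) and 2.04 (1.79 to 2.33). Btg2 was higher above the median in CD8 T and B cells too, with ratios of 1.45 and 2.12 in CD8 T cells and 1.66 and 1.42 in B cells at the 2 ages. The other members did not all follow. At 7 weeks Pim1 had 3.32 (2.13 to 5.32) in CD8 T cells and 0.920 (0.508 to 1.66) in B cells. Pim2 had 0.649 (0.238 to 1.63) in CD4 T cells of that age. Below the median alone, Btg1 averaged 3.66 UMIs at 7 weeks and 2.14 at 12 weeks in CD4 T cells, 3.26 and 1.64 in CD8 T cells and 4.12 and 1.83 in B cells. The age difference of Btg1 was thus also present among cells at or below the median of these genes. That median was taken per class and library. In CD4 T cells it was 12 and 11 UMIs of the 10 gene sum. It was 10 and 8 in CD8 T cells and 10 and 7 in B cells. The part of the immediate early genes in the age difference was not tested.

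Other genes of the same pathways were counted in all kept cells, where 7.21% of features were lower. Of 15 genes of the CCR4-NOT and other deadenylases and of poly(A) binding, with which BTG and TOB proteins work, 1 was lower and 0 were higher. That gene was Cnot11, a CCR4-NOT subunit, with 32.9 and 20.5 CPM (0.623, 0.533 to 0.729). Pabpc1, the main cytoplasmic poly(A) binding protein, had 831 and 759 CPM (0.913, 0.887 to 0.939). Features higher past 1.5-fold made up 5.28%. Of 12 quiescence genes 2 were lower and 1 was higher. The lower ones were Klf2, a quiescence factor, with 61.0 and 40.6 CPM (0.665, 0.595 to 0.745), and Tsc2, an inhibitor of mTOR signalling named after its value was seen, with 57 and 85 UMIs (0.666, 0.470 to 0.948). Lef1, a factor of naive T cells, was higher with 90.7 and 137 CPM (1.51, 1.39 to 1.64). In CD4 T cells Il7r, the receptor for interleukin 7, had 62.0 and 137 CPM (2.20, 1.87 to 2.61). The quiescence genes had a median log2 ratio of -0.16 in all kept cells, against 0.02 for all features. The list was drawn up with earlier results of these data known, so nothing is read from it.

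Of 14 genes between cytokine receptors and STAT targets, the group to which Pim1 belongs, 1 was lower and 1 higher. Socs2, a STAT5 target that limits cytokine signals, had 13.0 and 24.3 CPM (1.87, 1.51 to 2.32) and Il2ra, the interleukin 2 receptor alpha chain, 16.2 and 10.7 CPM (0.663, 0.532 to 0.829). Ccnd2, a cyclin with the most UMIs of this list, had 329 and 311 CPM (0.946, 0.904 to 0.990). Of 10 Pim substrates 0 were lower or higher, Eif4b having 179 and 174 CPM (0.969, 0.912 to 1.03). Of 9 NF-kB targets 1 was lower, the inhibitor Tnfaip3, with 95.6 and 55.8 CPM (0.583, 0.532 to 0.640). Of 9 p53 targets tested 0 were lower and 1 was higher, Phlda3, with 33 and 123 UMIs (1.66, 1.13 to 2.52). Immediate early genes were the list with the most lower members, 8 of 23 with a median log2 ratio of -0.48. Its lowest were Ier5, with 208 and 42.9 CPM (0.206, 0.189 to 0.224), and Atf3, with 60.1 and 17.8 CPM (0.296, 0.258 to 0.341), while Junb had 1093 and 883 CPM (0.808, 0.788 to 0.829).

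Genes whose levels followed each member were ranked by Pearson r over the 10 levels of 5 classes at 2 ages, on log2 of CPM + 10, among 9465 genes. The points share 2 libraries, and those of pDC and macrophages rest on few cells. The closest were Bloc1s1 to Btg2 (0.92), Klra6 to Tob1 (0.97), Nr1d2 to Tob2 (0.94), Pnrc1 to Pim1 (0.95) and Uba6 to Pim2 (0.97). Among members, r was 0.19 between Btg1 and Btg2, 0.59 between Btg1 and Tob1, 0.58 between Btg1 and Pim1 and 0.60 between Tob1 and Pim1. It was 0.48 between Tob1 and Tob2, 0.53 between Btg1 and Pim2, 0.50 between Tob2 and Pim1 and -0.17 between Pim1 and Pim2. The 10 levels include both ages, by whose ratio the members were selected, so nothing is read from these values.

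The 3' untranslated regions were examined for ATTTA, the pentamer of AU-rich elements that mark short-lived mRNAs. On GRCm38 they held 2.64 ATTTA per kb in Btg1, 2.27 in Btg2, 3.91 in Tob1, 1.63 in Tob2, 3.66 in Pim1 and 2.19 in Pim2, against a median of 1.33 over 10037 named protein-coding features. Each lower member had more than its paralog, and all 6 lay above the median. The lower members were selected by the age ratio, so nothing is read from this order. Across features no such order appeared, with median log2 age ratios of 0.07 without ATTTA and 0.05 with over 4 per kb (5.20% and 6.16% lower past 1.5-fold).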

How the data were processed

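Islet leukocytes of female NOD/ShiLtJ mice of 7 and 12 weeks were measured in 1 single-cell library per age. The authors deposited raw UMI counts per gene and barcode. Cell Ranger 1.3.1 and mm10 are named, per the submitters' processing notes, and the annotation is not given in the sources used here. From these counts, barcodes with under 200 genes or over 10% mitochondrial UMIs were removed (4 and 8). Doublets were scored per library against 2 simulated doublets per cell on 30 principal components of 2000 genes. The automatic threshold was used at 12 weeks (18 cells). At 7 weeks it marked 0.271% of cells, so the highest scores up to the loading rate of 0.887% were removed (10 cells), and the filters were therefore not alike.

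Classes were gated on UMIs of each cell: CD4 T (Cd4 at least 1, Cd8a and Cd8b1 0), CD8 T (Cd8a and Cd8b1 at least 2, Cd4 0), B (Cd79a at least 2), pDC (Siglech at least 3) and macrophage (C1qa, C1qb and C1qc at least 10). Depth was 8522481 and 19090758 UMIs in kept cells. UMIs were summed per class and library, and ratios past 1.5-fold of features with at least 50 UMIs were called. No test between ages was possible with a single library each, and age and library cannot be told apart. The procedure was tested on simulated data for all kept cells (10776 features): 100 of 100 features changed to 0.5 of their level and 100 of 100 doubled ones were called, as were 178 of 10576 unchanged ones. The simulated counts held counting error alone, with no spread between libraries or mice. They therefore give no error rate for the comparison of ages. The 6 members were named in full. Of each gene list, the 2 genes with the most UMIs and the 2 with the ratio furthest from 1 could be named, and the 3 genes most like a member by Pearson r. Members, lists and motifs were chosen with earlier results of these data known, and the lists hold textbook genes. Alternatives covered the fold, filters, doublets, gates, weighting, thinning, scaling, high cells, cycling cells, immediate early UMIs and depth. Gene positions are from GENCODE on GRCm38 and promoters from RefSeq. A few genes, and a division of T cells that used 1 of them, are not reported here. Python 3.11.15, numpy 2.4.6, scipy 1.17.1, pandas 2.3.3 and scikit-learn 1.9.0 were used.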

Additional observations from a re-analysis of the deposited data

Results flagged for a closer look

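The 12 over 7 week ratio of Btg2 had intervals on opposite sides of 1 in different classes. It was 1.67 in pDC, 0.859 in B cells and 0.594 in macrophages, from 29 and 54 pDC and 11 and 34 macrophages. Pim1 in cycling over other cells also lay on opposite sides of 1 as CPM. As UMIs per cell, not scaled for depth, its mean was above that of other cells in cycling cells of all 3 lymphocyte classes. In CD4 T cells at 12 weeks the intervals overlapped. At 7 weeks the CPM ratio was 6.73 in B cells and 0.647 in CD8 T cells. At 12 weeks it was 2.09 in B cells, 0.534 in CD4 T cells and 0.650 in CD8 T cells. These differences between classes were not tested, since each age has 1 library.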

How the results depend on the processing

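No paired analysis was possible because each age has 1 library. The ratios of Btg1, Tob1 and Pim1 stayed past 1.5-fold under each alternative that gave a value in all kept cells (Btg1 0.447 to 0.499, Tob1 0.209 to 0.264, Pim1 0.407 to 0.472), CD4 T cells, CD8 T cells and B cells, where Pim1 ranged from 0.240 to 0.519. Of 112 alternative counts of members called, 93 lay within 1.5 times the reported count. With at most 2 immediate early UMIs per cell (19 and 106 cells in all), 1 of 2 members with enough UMIs was lower in all kept cells, 1 of 1 in CD4 T, CD8 T and B cells and 1 of 2 in cycling cells at 12 weeks, where Btg2 reversed to 1.42, from 9 cycling cells. Without the 5 cells with the most UMIs of a member, 2 of 5 were lower in B cells, 1 of 2 in pDC and 1 of 2 in macrophages. Thinning left 1 of 2 in pDC and 1 of 1 in macrophages. Leaving out cells in 2 gates left 1 of 2 in pDC, and Pim1 in macrophages reversed to 1.03 (7 and 22 cells). With every cell weighted alike, 3 were lower in cycling cells at 7 weeks. Added after seeing the data were a fold of 2 (1 member in macrophages, 2 in cycling cells at 7 weeks) and windows of depth. Among cells of 4000 to 6000 UMIs the counts were 0 of 1 in pDC, 2 of 6 in cycling cells at 7 weeks and 3 of 6 at 12 weeks, and Tob1 in cycling cells at 7 weeks reversed to 1.40. Among cells of 8000 to 16000 UMIs they were 1 of 5 and 2 of 6, and Pim2 in cycling cells at 12 weeks reversed to 1.28. Fewer cells and UMIs limit pDC, macrophages and the depth windows, and the cause of these changes was not tested.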
